A study of Mus musculus with 18 samples.

Results

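Kidneys of old male mice given SeMSNs were compared with kidneys of old control mice, 3 polyA RNA libraries against 3, over every gene that passed a count filter in this tissue. These are 6 of the 18 libraries of a series that also holds brain and gastrocnemius. Both groups were wild-type C57BL/6 males on a normal diet, 18 months old at the start and 23 months old when tissue was taken. The SeMSNs group received SeMSNs, a nano-selenium supplement in the submitters' title, by gavage. The Old control group received the same volume of saline. Dose is recorded in 2 ways by the submitters, as 5 mg/kg (1 mg/mL) given 2 times every 2 days in the design and as 10 mg/kg daily under treatment. The series has no young kidneys, so no value below says how a gene changes with age. The labels do not tie a library to a mouse or to a part of the kidney, and the p-values therefore measure the spread between these libraries, which may be technical. SeMSNs replicate 3 is numbered 4 by the submitters. Where 3 values are given for a group, they are replicates 1, 2 and 3.

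The kidney filters plasma at glomeruli and then recovers water, salts, glucose and amino acids along the nephron. The proximal tubule does most of this work and makes up most of the cortex. It is followed by the loop of Henle with its thick ascending limb, the distal convoluted tubule and the collecting duct, whose principal cells handle sodium and water and whose intercalated cells handle acid. Selenium enters proteins as selenocysteine. The kidney is the main source of the plasma glutathione peroxidase Gpx3, a selenoprotein. Salt-inducible kinases such as Sik1, which the series title names, hold back the coactivators of the transcription factor Creb.

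Total counts were between 17357799 and 22146406 per library, so a count of 0 allowed up to 0.135 to 0.173 CPM (3 counts, counting error only). The mitochondrial genome took 24.5%, 28.0% and 26.4% of counts in the SeMSNs libraries and 28.1%, 25.8% and 28.9% in Old control. The libraries looked like kidney: the phosphate carrier Slc34a1 averaged 1415 ± 124 FPKM with SeMSNs and 1181 ± 225 FPKM in Old control and the fatty acid transporter Slc27a2 928 ± 112 FPKM with SeMSNs and 793 ± 47.4 FPKM in Old control (SD, n = 3 each). The first principal component held 31.8% of the variance and did not separate the groups. It set Old control replicate 3 at 51.8 and SeMSNs replicate 2 at −33.2, with the other 4 libraries between −8.68 and −2.36. Many results that lean on either library are given with and without it.

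Of 15051 genes tested, 1 passed: Eva1a was lower with SeMSNs, and no gene was higher past the threshold (adjusted p under 0.05, quasi-likelihood test in edgeR, adjusted after Benjamini and Hochberg; percent called 0.00664 lower and 0 higher). At an unadjusted p under 0.05, 380 genes were higher (2.52%) and 540 lower (3.59%). DESeq2 called 8 higher (0.0532%) and 18 lower (0.12%), and limma on log2(FPKM + 1) called 0 in both directions. In 2031 genes (13.5%) the 3 SeMSNs libraries lay entirely above or entirely below the 3 Old control libraries, 992 above (6.59%) and 1039 below (6.9%). The median log2 fold change over all genes was 0.00229, and 49.6% of genes were lower.

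Eva1a encodes a lysosomal and endoplasmic reticulum membrane protein that takes part in autophagy and programmed cell death. It had 322, 208 and 341 counts with SeMSNs and 914, 1030.0 and 822 in Old control, which is 15.5, 12.3 and 16.1 CPM with SeMSNs, against 43.2, 45.0 and 47.1 CPM in Old control. Each Old control library lay above each SeMSNs library, and the nearest of them stood 2.69-fold apart. Per length of transcript the level was 4.27 ± 0.726 FPKM with SeMSNs and 12.7 ± 0.524 FPKM in Old control (SD, n = 3 each). Eva1a fell by 1.62 ± 0.136 (SE) on the log2 scale, with an adjusted p of 0.0429. The fall kept its size in every alternative that was run, between −1.69 and −1.39, but the call did not hold in 8 of 18: the adjusted p was 0.0779, 0.186 and 0.109 without Old control replicate 1, 2 and 3 in turn, 0.238 and 0.0719 without SeMSNs replicate 1 and 3, and 0.0982, 0.213 and 0.338 in the other 3, within a range of 8.13e-18 to 0.338. The related genes Eva1b and Eva1c had log2 fold changes of 0.03 ± 0.239 and 0.07 ± 0.337 (SE) and did not pass.

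The gene lies on mouse chromosome 6 (ENSMUSG00000035104; GRCm38, 82041043 to 82093099, plus strand). An antisense gene, Gm15864, overlaps it and had 0 counts in all 6 kidney libraries, and no annotated gene overlaps it on its own strand. Umad1, a second gene of chromosome 6 taken up again with the genes at 2 levels, encodes a small protein with a domain found in factors of endosomal sorting. The RefSeq promoters of both span 250 bases before to 50 bases after the start in GRCm38.p6. They are shown because these 2 genes alone, of 47 genes at 2 levels by the limits given below, divided along the treatment groups. Capitals in the Eva1a promoter mark an E-box (CACGTG), and capitals in the Umad1 promoter mark the core of the cAMP response element (TGACG, or CGTCA on the other strand), which Creb binds.

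Eva1a promoter, chr6:82041378-82041677, plus strand: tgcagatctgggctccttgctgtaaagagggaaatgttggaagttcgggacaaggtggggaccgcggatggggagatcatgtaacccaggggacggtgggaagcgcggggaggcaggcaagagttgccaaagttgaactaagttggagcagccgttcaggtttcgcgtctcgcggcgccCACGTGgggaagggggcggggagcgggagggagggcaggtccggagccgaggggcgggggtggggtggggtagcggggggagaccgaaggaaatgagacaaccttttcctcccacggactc
Umad1 promoter, chr6:8259038-8259337, plus strand: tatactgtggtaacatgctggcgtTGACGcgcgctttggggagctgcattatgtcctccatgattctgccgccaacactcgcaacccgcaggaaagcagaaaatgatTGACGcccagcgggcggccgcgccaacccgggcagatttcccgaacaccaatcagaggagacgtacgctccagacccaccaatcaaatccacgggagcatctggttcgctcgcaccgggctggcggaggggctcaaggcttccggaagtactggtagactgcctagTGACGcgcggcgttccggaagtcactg

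Both strands were searched. The Eva1a window held 1 E-box, no core and no whole cAMP response element (TGACGTCA), and the Umad1 window held 3 cores, no E-box and no whole element. Among 32851 RefSeq promoters of the same length, 7.15% held the E-box, 20.8% the core and 1.79% the whole element; counted over 27025 genes, these shares were 8.09%, 23% and 2.03%. The whole element also contains the core. Of the 26 genes called by edgeR or DESeq2, 20 had a RefSeq promoter. The E-box was found in 4 of these, the core in 7 and the whole element in 1, the promoter of Lrrc8a.

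Next in order on the lower side came genes that DESeq2 called and edgeR did not. Tmem9 encodes a lysosomal membrane protein that helps to acidify vesicles. It had 20.9, 17.3 and 17.7 CPM with SeMSNs, against 42.0, 40.3 and 42.3 CPM in Old control, with no overlap, and a log2 fold change of −1.15 ± 0.120 (SE; adjusted p 0.0674 by edgeR, 3.63e-10 to 1 over its alternatives). Umad1 had 7.66, 5.52 and 7.97 CPM with SeMSNs, against 28.4, 21.9 and 19.2 CPM in Old control (−1.71 ± 0.205, SE). The complement protease gene C1s1 was at 5.64, 5.10 and 7.22 CPM with SeMSNs, against 18.2, 13.9 and 16.4 CPM in Old control. All SeMSNs libraries of these 3 genes lay below all Old control libraries. The zinc finger gene Zfp180 had 5.83, 3.74 and 5.33 CPM with SeMSNs, against 15.2, 28.7 and 19.1 CPM in Old control, and its Old control libraries were spread more widely.

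Among the 18 genes that DESeq2 called lower, a few mark myeloid cells or vessels. Cd33, a sialic acid-binding lectin of myeloid cells, had 1.69, 2.55 and 2.03 CPM with SeMSNs, against 5.81, 6.86 and 6.07 CPM in Old control. Calcrl, the receptor that binds adrenomedullin together with a Ramp protein, had 8.09, 7.53 and 8.16 CPM with SeMSNs, against 16, 13.0 and 14.7 CPM in Old control. Cd93, a lectin of endothelial and myeloid cells, had 16.9, 14.5 and 15.8 CPM with SeMSNs, against 24.1, 30.6 and 37.7 CPM in Old control. In each the groups were apart, by most in Cd33, whose highest SeMSNs library was under the lowest Old control library by 2.28-fold. Adgre1, which encodes the macrophage marker F4/80, is given with the macrophage genes. Gldc, the glycine-cleaving decarboxylase of mitochondria and the called gene with the highest CPM, was at 211, 244 and 119.9 CPM with SeMSNs, against 312, 557 and 452 CPM in Old control. Its highest SeMSNs and lowest Old control libraries were 1.28-fold apart.

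The remaining genes that DESeq2 called lower were Rps6ka3, a ribosomal S6 kinase (−1.57 ± 0.284, SE), Nabp1 of the single-strand DNA-binding SOSS complex (−0.83 ± 0.165), Lrrc8a of the volume-regulated anion channel (−1.11 ± 0.257), the adhesion gene Sdk2 (−1.80 ± 0.322), Ttpal, related to the vitamin E carrier (−2.05 ± 0.515), Smim8 (−1.04 ± 0.142) and the predicted genes Gm42890 and Gm20634 (−2.07 ± 0.40 and −1.84 ± 0.502). Of these, 3 share sequence with neighbours on their own strand: Lrrc8a with Gm28035, Gm42890 with Ovgp1 and Wdr77, and Gm20634 with the histone genes Hist2h2aa1 and Hist2h3c1. Gm42890 also overlaps the far more abundant Atp5f1 on the other strand. Their counts are uncertain, because the labels give neither the counting method nor its use of strand.

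On the higher side the lead gene was BC003331, now named Odr4, whose worm counterpart helps to bring odorant receptors to cilia. It had 54.7, 68.2 and 63.9 CPM with SeMSNs, against 27.8, 27.2 and 27.1 CPM in Old control, a log2 fold change of 1.19 ± 0.120 (SE) and an adjusted p of 0.0674 by edgeR (2.99e-11 to 0.984 over its alternatives). The Old control libraries lay within 1 CPM of each other. It overlaps Tpr on the opposite strand, and reads of the pair can be told apart only if the counting used strand; Ccnd3 and Bysl, and Trim7 and Gm12184, are such pairs too. Sec22c, of transport between the endoplasmic reticulum and the Golgi, had 6.22, 5.99 and 5.23 CPM with SeMSNs, against 2.03, 1.75 and 2.18 CPM in Old control. The deubiquitinase gene Josd2 had 29.8, 29.1 and 23.9 CPM with SeMSNs, against 16.8, 15.8 and 15.4 CPM in Old control. Trim7, a ubiquitin ligase that binds glycogenin, had 191, 235 and 182 CPM with SeMSNs, against 129, 119.7 and 111 CPM in Old control. These 3 were without overlap between groups, as were the mediator subunit gene Med15 (0.73 ± 0.138, SE), the enoyl-CoA hydratase family gene Echdc2 (0.57 ± 0.118) and Gm20605 (0.74 ± 0.121), which shares sequence with Lrch4 and Sap25.

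Ccnd3, the gene of cyclin D3, had the highest fold change of the called genes, with uneven SeMSNs libraries. It was at 63.9, 78.8 and 22.6 CPM with SeMSNs, against 19.3, 16.3 and 12.7 CPM in Old control, so that SeMSNs replicate 3 lay close to Old control replicate 1 and far below the other SeMSNs libraries. Genes that led the higher side without passing either test were the tubulin acetyltransferase gene Atat1 (0.63 ± 0.125, SE), Bend5 (0.61 ± 0.128), the endophilin gene Sh3gl2 (0.79 ± 0.170), Nrep (1.02 ± 0.225), the small GTPase gene Rhov (0.98 ± 0.216), the exoribonuclease gene Eri2 (0.73 ± 0.165) and the collagen-modifying hydroxylase gene P3h3 (0.82 ± 0.186).

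**Figure D1:**
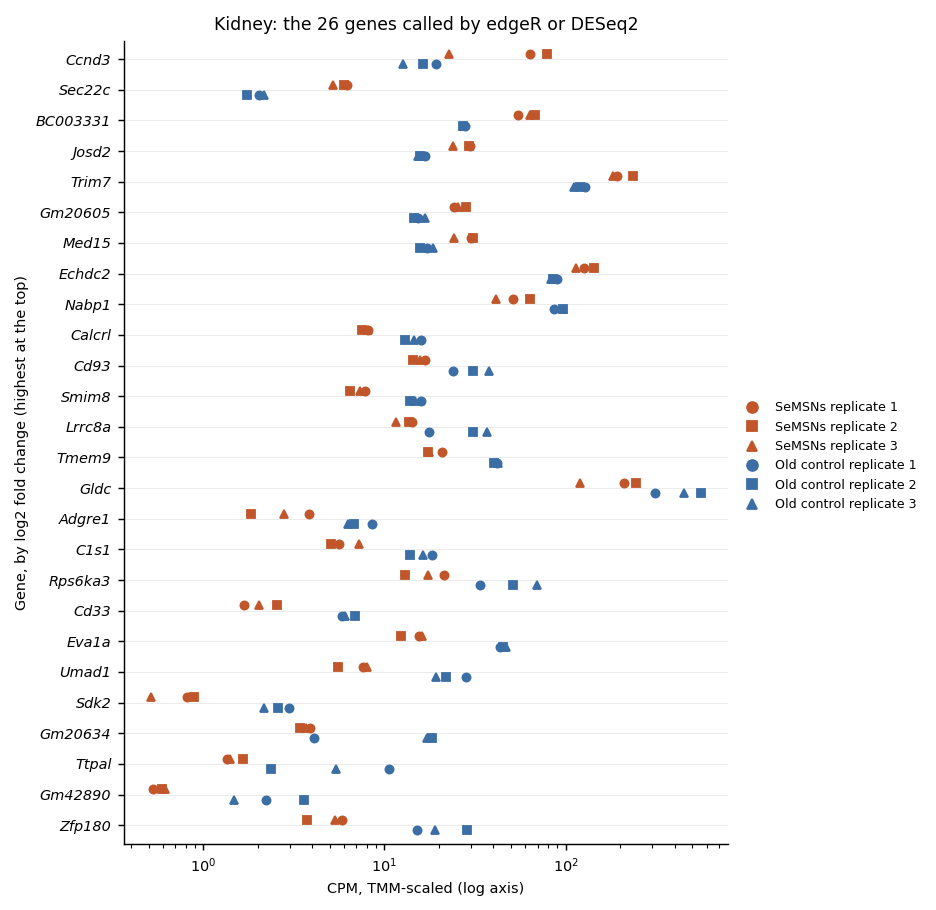
CPM of the 26 genes called by edgeR or DESeq2 in each of the 6 kidney libraries, on a log axis, with SeMSNs libraries above Old control libraries in each row and genes ordered by log2 fold change. The groups are apart in all rows, by little in Gm20634 (Old control replicate 1 at 4.06 CPM, SeMSNs up to 3.90 CPM) and by the most in Eva1a and Zfp180 (2.69-fold and 2.61-fold between the nearest libraries).

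**Figure D2:**
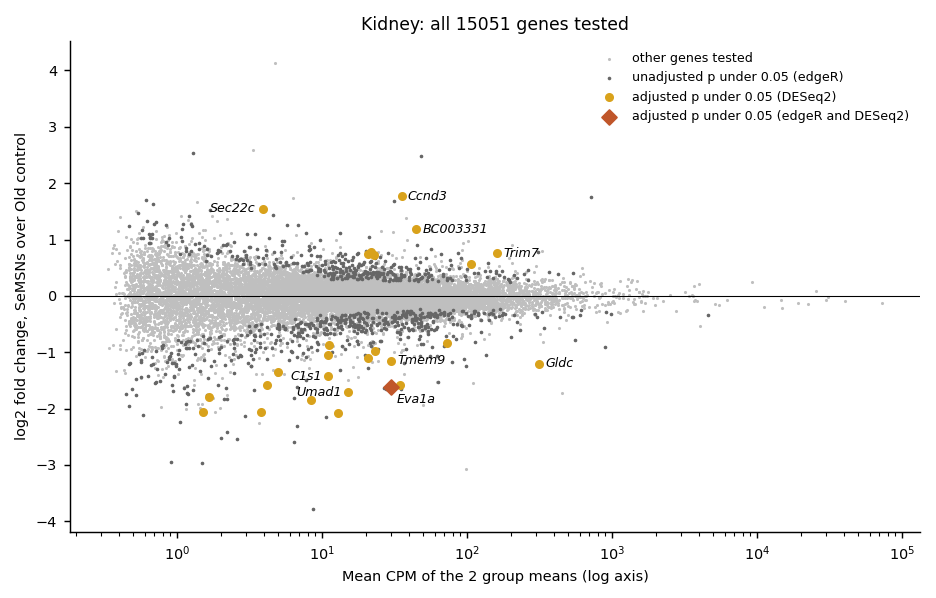
Log2 fold change of SeMSNs over Old control against the mean CPM on a log axis for the 15051 genes tested. Genes at an unadjusted p under 0.05, genes called by DESeq2 and the 1 gene called by edgeR, Eva1a at −1.62, are marked, and the median of all genes is 0.00229.

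Eva1a and Umad1 had a feature in common with genes whose libraries did not divide along the groups: they sat at 2 levels with nothing between. Among 10775 genes with a mean of at least 5 CPM, 47 had libraries at 2 levels, defined as a gap of at least 1 on the log2 scale, at least 2 libraries on each side and a range under 0.6 within each side. These limits were set after the values were seen. Tmem9 and BC003331 also divided along the groups, with the libraries of each group close together, but their gap was under the limit. Both levels occurred within both groups in 33 of the 47. Tmem127, an endosomal membrane protein and tumour suppressor, had the widest gap, with 2.70, 1.78 and 91.6 CPM with SeMSNs, against 83.3, 97.9 and 97.5 CPM in Old control. Kcnj16, a potassium channel subunit of the distal nephron, had 59.5, 516 and 60.6 CPM with SeMSNs, against 656, 669 and 766 CPM in Old control. In these 2 genes, 2 SeMSNs libraries were low, and the third was with Old control.

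The phosphatase gene Ctdsp2 had 24.3, 101 and 113 CPM with SeMSNs, against 27.9, 26.4 and 102 CPM in Old control. The X-linked transcription factor gene Zfx had 29.9, 26.8 and 4.15 CPM with SeMSNs, against 33.5, 3.23 and 23.1 CPM in Old control. In both, each group held libraries at either level. Crk, an adaptor in tyrosine kinase signalling, had 142, 118 and 146 CPM with SeMSNs, against 137, 31.9 and 36 CPM in Old control, low in 2 Old control libraries only. Each library was at the low level for some of these genes and at the high level for others. A split of 3 libraries against 3 occurred in 8 of the 47, and it followed the groups in 2, Eva1a and Umad1. An annotated gene overlapped on the same strand in 12 of 46 of these genes found in the annotation (26.1%), and in 23.7% of all genes tested. What sets the 2 levels was not tested.

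**Figure D3:**
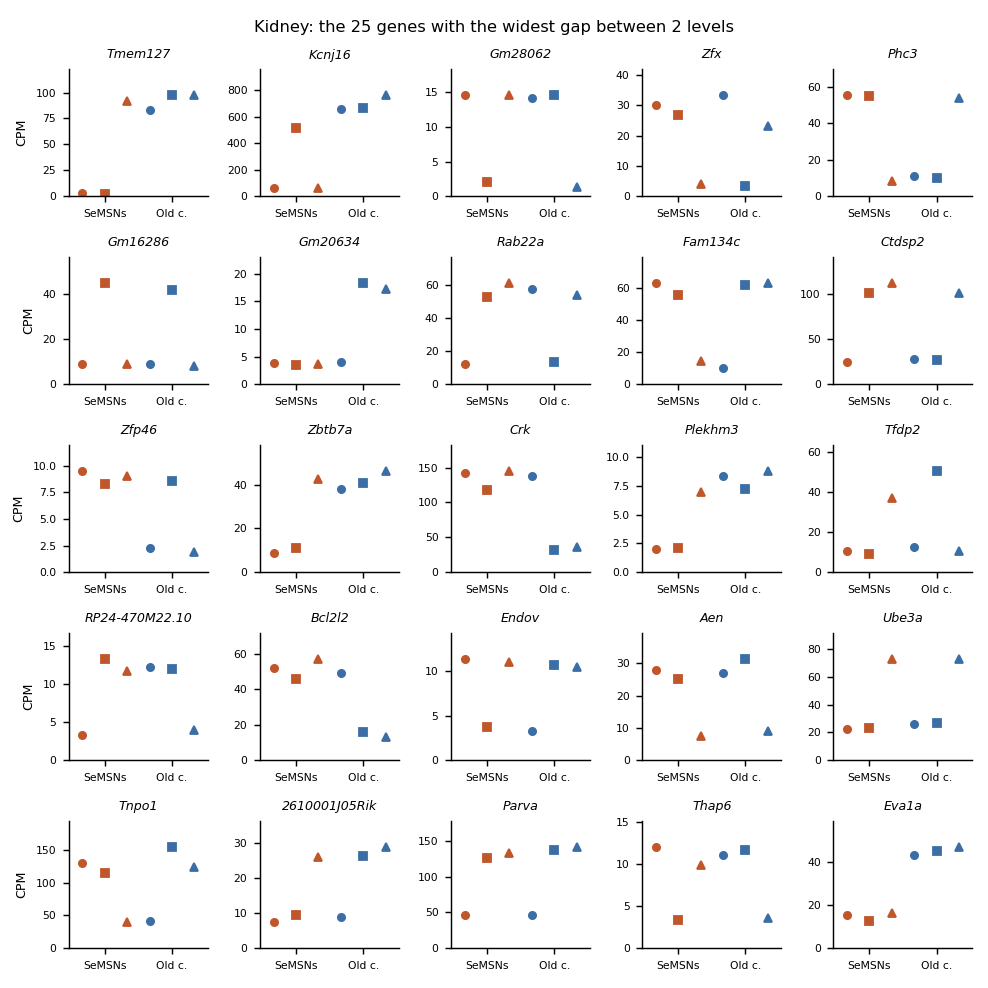
CPM in each kidney library of the 25 genes with the widest gap between 2 levels, widest first, with the 3 SeMSNs libraries on the left of each panel, the 3 Old control libraries on the right, and circles, squares and triangles for replicates 1, 2 and 3. Low and high libraries occur in both groups in most panels, while Eva1a, the last panel, is low in all SeMSNs libraries (12.3 to 16.1 CPM) and high in all Old control libraries (43.2 to 47.1 CPM).

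Markers of most nephron segments had medians near 0. In bulk tissue, fewer cells of a type and less RNA per cell cannot be told apart. Of 15 genes shared by the proximal tubule, 10 were higher and 5 lower. Their median was 0.13 on the log2 scale, and none had an unadjusted p under 0.05. The endocytic receptors Lrp2 and Cubn, which retrieve filtered protein, had log2 fold changes of −0.01 ± 0.124 and −0.01 ± 0.109 (SE), and the transcription factor Hnf4a −0.01 ± 0.0991. Medians were 0.04 for the early and 0.09 for the late proximal segment, 0.01 for the thick ascending limb, 0.08 for the distal convoluted tubule, −0.03 for connecting tubule and principal cells, −0.02 for intercalated cells and 0.03 for podocytes. Macula densa, the sensor of tubular salt, had 3 of 5 markers lower and a median of −0.25, and its prostaglandin synthase gene Ptgs2 had 0.337, 0 and 0.613 CPM with SeMSNs, against 0.709, 0.743 and 6.53 CPM in Old control. In the other 8 lists 2 genes, both lower and of the early proximal segment, had an unadjusted p under 0.05: the glucose transporter gene Slc2a2 (176, 146 and 156 CPM with SeMSNs, against 187, 188 and 216 CPM in Old control) and the bicarbonate cotransporter gene Slc4a4 (901, 921 and 818 CPM with SeMSNs, against 987, 1063 and 1256 CPM in Old control). Proximal lists leaned on Old control replicate 3. Without it the medians were 0.26 for the shared, 0.08 for the early and 0.42 for the late list. At that p 2, 2 and 3 members were higher and none lower (488 and 500 of 15362 genes in that fit).

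Markers of the inner kidney set 1 library apart. Those of medulla and papilla had list means, relative to the Old control mean on the log2 scale, of −0.13, −1.48 and −0.03 with SeMSNs and 0.36, −0.09 and −0.28 in Old control. The urea transporter gene Slc14a2, of the thin limbs and inner collecting duct, had 19.8, 1.54 and 25.8 CPM with SeMSNs, against 35.1, 31.8 and 16.8 CPM in Old control. SeMSNs replicate 2 was low in both, and all 9 of 9 members had negative fold changes, with a median of −0.22 and none at an unadjusted p under 0.05. Without this library the median was −0.06. The furosemide-sensitive cotransporter Slc12a1 of the thick ascending limb was also lowest there (1144, 639 and 1714 CPM with SeMSNs, against 1379.7, 1588 and 1201 CPM in Old control).

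Tissue around the kidney varied too. Fat cell markers had list means of 2.60, −1.51 and −1.10 with SeMSNs and 1.13, −1.93 and 0.80 in Old control, and the adipokine gene Adipoq had 8.0, 0.119 and 0 CPM with SeMSNs, against 2.13, 0 and 1.15 CPM in Old control. SeMSNs replicate 1 was the highest library in both. Markers of urothelium, the lining of the renal pelvis, were at 0.77, −1.32 and −0.71 with SeMSNs and −0.10, −1.11 and 1.20 in Old control. Summed red blood cell genes were at 6.6, 38.1 and 41.8 CPM with SeMSNs and 119.6, 8.83 and 78.0 CPM in Old control. The groups overlapped in these 3 lists. Without Old control replicate 2, however, all 5 tested red cell genes were lower at an unadjusted p under 0.05 (497 of 15288 genes in that fit). The part of these 3 lists in the results below was not tested. Of 7 adrenal cortex markers only Star passed the count filter, at 1.16, 0.771 and 0.943 CPM with SeMSNs, against 1.28, 1.22 and 1.03 CPM in Old control.

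**Figure D4:**
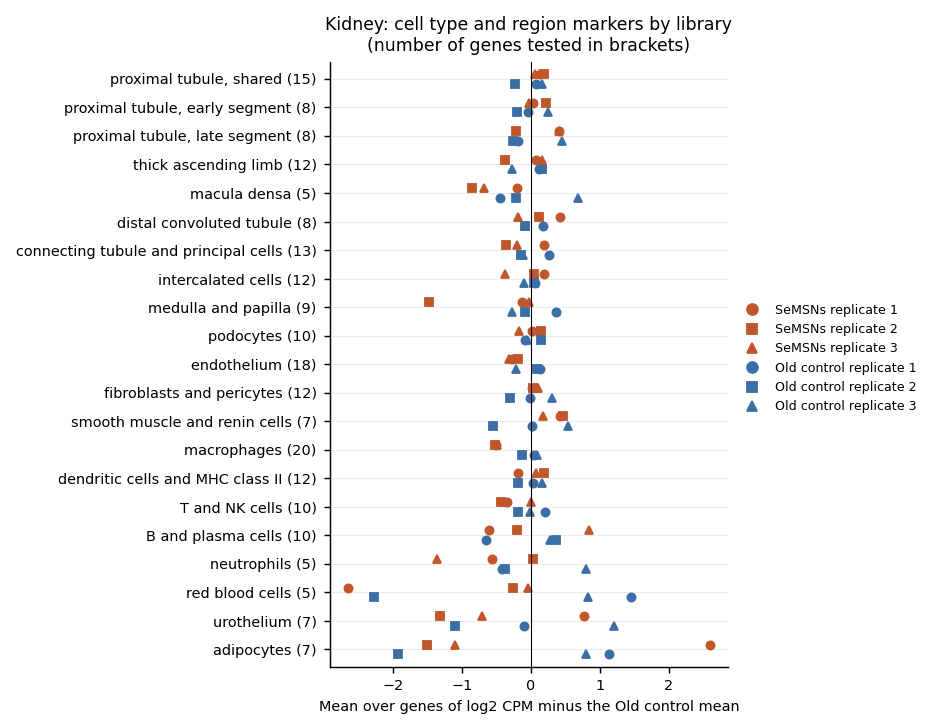
Mean over the genes of each cell type or region list of log2 CPM minus the Old control mean, for each kidney library, with SeMSNs above Old control in each row. Macrophage genes are lower in all SeMSNs libraries (−0.52 to −0.49) than in all Old control libraries (−0.13 to 0.09); SeMSNs replicate 2 stands at −1.48 for medulla and papilla, and SeMSNs replicate 1 at 2.60 for fat cells.

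Macrophage genes lay lower with SeMSNs. Of 20 tested, 18 had negative fold changes, 11 of them at an unadjusted p under 0.05, where 0 were higher (3.59% and 2.52% of all genes), and 11 were lower without overlap between the groups (6.9% of all genes were). No member passed edgeR's adjusted test, and Adgre1 passed DESeq2's. The list's median was −0.50, and its summed level was 205, 190.3 and 219.9 CPM with SeMSNs, against 317, 262 and 295 CPM in Old control. The 3 SeMSNs libraries were close together and below every Old control library. Leaving out each library in turn gave medians between −0.53 and −0.46. In these fits 9 to 11 members were lower at an unadjusted p under 0.05, beside 413 to 638 of the 15267 to 15362 genes tested. Leaving out both Old control replicate 3 and SeMSNs replicate 2 gave −0.56 with 9 lower (578 of 15216 genes).

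The lowest p-values belonged to Ctss, a lysosomal protease of antigen-presenting cells, with 19.7, 19.0 and 20.1 CPM with SeMSNs, against 29.5, 27.9 and 27.1 CPM in Old control, and to the perforin-like gene Mpeg1, with 18.4, 22.3 and 20.1 CPM with SeMSNs, against 33.5, 30.7 and 28.4 CPM in Old control. Adgre1 had 3.85, 1.84 and 2.78 CPM with SeMSNs, against 8.51, 6.82 and 6.30 CPM in Old control, and Lyz2, the lysozyme of macrophages and neutrophils, had 36.9, 25.1 and 43.8 CPM with SeMSNs, against 81.8, 42.9 and 66.9 CPM in Old control. Groups overlapped for Lyz2 and not for the other 3. Not all macrophage genes followed. Csf1r, the receptor for the macrophage growth factor, had 37.3, 33.9 and 47.8 CPM with SeMSNs, against 35.7, 39.4 and 41.4 CPM in Old control (0.03 ± 0.152, SE), and the scavenger receptor gene Cd163 and Cd68 had fold changes of 0.11 ± 0.325 and −0.19 ± 0.288. Of the other leukocyte lists, the median was −0.12 for dendritic cells and MHC class II, −0.23 for T and NK cells and −0.08 for B and plasma cells, and Cd4 was the only one of these genes at an unadjusted p under 0.05 (−1.01 ± 0.307, SE). Of 10 neutrophil markers 5 passed the count filter, and S100a9, an inflammatory calcium-binding protein, had 1.49, 2.91 and 1.37 CPM with SeMSNs, against 3.45, 2.40 and 7.73 CPM in Old control. All 5 lay lower, 1 at an unadjusted p under 0.05, with a median of −0.89 that was −0.14 without Old control replicate 3. The neutrophil genes Ly6g, Ngp and Camp had 3, 1 and 2 counts over the 6 libraries. Immunoglobulin Ighm ranged from 19.5 to 304 CPM within the SeMSNs libraries alone.

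Complement genes were lower in part. C1q, the recognition part of the classical pathway, is made largely by macrophages, and its 3 chains C1qa, C1qb and C1qc also stand on the macrophage list. They had log2 fold changes of −0.46 ± 0.148, −0.50 ± 0.141 and −0.68 ± 0.196 (SE). C3, the central component, which injured tubules also make, had 49.0, 52.4 and 44.0 CPM with SeMSNs, against 75.7, 172 and 78.5 CPM in Old control, where Old control replicate 2 was high and the groups did not overlap. The proteases C1s1 and C1ra differed: C1s1 is given above, and C1ra had 8.72, 10.8 and 9.90 CPM with SeMSNs, against 9.12, 8.66 and 9.05 CPM in Old control (0.13 ± 0.146). The alternative pathway protease Cfb was at 166, 315 and 178 CPM with SeMSNs, against 309, 266 and 240.3 CPM in Old control, and the inhibitor Serping1 had a fold change of −0.13 ± 0.189. In all, 7 of 19 tested were lower and 0 higher at an unadjusted p under 0.05 (3.59% and 2.52% of all genes), and the median was −0.24. Without SeMSNs replicate 1, 4 were lower at that p (413 of 15331 genes in that fit).

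Endothelial genes had a median of −0.41, with 13 of 18 lower (49.6% of all genes), 7 of them at an unadjusted p under 0.05 (3.59% of all genes). The adhesion gene Pecam1 had 33.6, 28.6 and 38.5 CPM with SeMSNs, against 51.8, 49.0 and 50.3 CPM in Old control, and the receptor phosphatase gene Ptprb had 43.6, 37.4 and 43.6 CPM with SeMSNs, against 66.1, 65.3 and 53.8 CPM in Old control. Flt1, a receptor for the growth factor Vegfa, had 35.0, 43.8 and 38.5 CPM with SeMSNs, against 56.8, 67.4 and 53.7 CPM in Old control. These 3 were apart between groups. For other vessel genes the distance rested on Old control replicates 1 and 2. Old control replicate 3 lay below all SeMSNs libraries for Kdr and among them for Tek and Plvap. Kdr, the main Vegfa receptor, had 31.2, 38.7 and 32.3 CPM with SeMSNs, against 53.5, 55.9 and 26.1 CPM in Old control. Tek had 18.8, 22.1 and 23.6 CPM with SeMSNs, against 35.4, 36.7 and 19.0 CPM in Old control. Plvap, of fenestrated capillaries, had 41.1, 58.7 and 46.2 CPM with SeMSNs, against 85.1, 84.2 and 49.6 CPM in Old control. Members that were not lower included Sema3g (0.21 ± 0.137, SE), of arteries, and the glomerular gene Ehd3 (0.06 ± 0.265). At the same p, 9 were lower without Old control replicate 3 (500 of 15362 genes in that fit). Without Old control replicate 2 there were 4 (497 of 15288 genes), and without SeMSNs replicate 1 also 4 (413 of 15331 genes). Vegfa itself, which podocytes and tubules secrete, had 209, 233 and 201 CPM with SeMSNs, against 175, 180.2 and 175 CPM in Old control, higher without overlap (0.28 ± 0.103; adjusted p 0.772).

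Genes of cholesterol synthesis and uptake had a median of −0.21, with 17 of 22 lower and 7 lower and 0 higher at an unadjusted p under 0.05 (3.59% and 2.52% of all genes). Not every step differed alike. Insig1, which holds the sterol sensor in the endoplasmic reticulum, had 26.5, 27.6 and 26.6 CPM with SeMSNs, against 42.6, 50.3 and 35.1 CPM in Old control. Squalene synthase Fdft1 had 26.7, 28.7 and 28.2 CPM with SeMSNs, against 35.9, 39.1 and 40.0 CPM in Old control, and the methylsterol oxidase Msmo1 had 15.5, 11.8 and 18.9 CPM with SeMSNs, against 22.7, 29.3 and 30.6 CPM in Old control. In all 3 the groups were apart. Hmgcs1 and Cyp51, of an early and a late step, had fold changes of −0.04 ± 0.129 and 0.09 ± 0.183 (SE). Without Old control replicate 3 the median was −0.08, and 4 members were lower at that p without SeMSNs replicate 1 (413 of 15331 genes in that fit).

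Genes of tubular injury lay lower, and Old control replicate 3 stood apart. Their median was −0.66, with 16 of 17 lower and 5 lower and 1 higher at an unadjusted p under 0.05 (3.59% and 2.52% of all genes). List means were −0.43, −0.56 and −0.70 with SeMSNs and −0.44, −0.32 and 0.77 in Old control. Without Old control replicate 3 the median was −0.19, and 3 were lower at that p (500 of 15362 genes in that fit). Without Old control replicates 1 and 2 in turn, 7 and 9 were lower (638 of 15267 and 497 of 15288 genes). Without SeMSNs replicates 1, 2 and 3 in turn, 2, 3 and 3 were lower (413 of 15331, 435 of 15344 and 481 of 15281 genes). Havcr1, the classical marker of injured proximal tubules, was at 2.79, 2.97 and 3.49 CPM with SeMSNs, against 3.97, 5.81 and 5.04 CPM in Old control, and the annexin gene Anxa2 at 56.5, 47.2 and 58.6 CPM with SeMSNs, against 83.6, 73.6 and 109 CPM in Old control, both without overlap. The urokinase receptor gene Plaur had 4.10, 3.97 and 4.06 CPM with SeMSNs, against 5.34, 5.25 and 23.9 CPM in Old control, with Old control replicate 3 far above the rest.

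The same library stood out for immediate early genes, which respond within minutes to many stimuli. Their list means were −0.46, −0.29 and −0.78 with SeMSNs and −0.50, −0.44 and 0.94 in Old control. The median was −0.57 with Old control replicate 3 and 0.03 without it. At an unadjusted p under 0.05, 6 members were lower and 0 higher with all libraries (3.59% and 2.52% of all genes). Without Old control replicate 3, 10 of 23 were lower. At that p 3 were lower and 1 higher (500 and 488 of 15362 genes in that fit). Without Old control replicates 1 and 2 in turn, 12 and 6 were lower (638 of 15267 and 497 of 15288 genes). Without SeMSNs replicates 1, 2 and 3 in turn, 4, 3 and 2 were lower (413 of 15331, 435 of 15344 and 481 of 15281 genes). Without SeMSNs replicate 3, 1 was higher (353 of 15281 genes). Atf3 had 0.964, 1.30 and 0.990 CPM with SeMSNs, against 2.22, 2.10 and 10.1 CPM in Old control and Klf6 33.0, 27.0 and 31.6 CPM with SeMSNs, against 39.3, 50.4 and 103 CPM in Old control. Chemokines followed in part: Cxcl1, which draws neutrophils, had 1.69, 2.67 and 1.13 CPM with SeMSNs, against 1.65, 2.62 and 29.0 CPM in Old control, and the list's median of −0.40 was −0.13 without that library. The cell cycle inhibitor Cdkn1a had 19.8, 14.8 and 13.7 CPM with SeMSNs, against 15.3, 16.7 and 52.3 CPM in Old control and the glutathione synthesis gene Gclc 253, 207 and 268 CPM with SeMSNs, against 226, 316 and 746 CPM in Old control, high in Old control replicate 3 alone. Cdkn2a, of senescence, was under the count filter, with 10 counts over the 6 libraries.

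Matrix and fibrosis genes had a median of −0.000705 with 13 of 26 lower. At an unadjusted p under 0.05, 3 were lower and 0 higher (3.59% and 2.52% of all genes). The collagens of scar tissue, Col1a1 and Col3a1, had log2 fold changes of 0.37 ± 0.199 and 0.16 ± 0.231 (SE), and the basement membrane collagen Col4a1 −0.28 ± 0.218. The 3 members at an unadjusted p under 0.05 were lower: Tgfb1, the main profibrotic cytokine, had 6.17, 6.58 and 7.22 CPM with SeMSNs, against 8.51, 8.17 and 12.2 CPM in Old control, Thbs1 had 75.5, 40.3 and 72.1 CPM with SeMSNs, against 75.1, 91.5 and 154 CPM in Old control and the crosslinking oxidase gene Loxl2 had 3.37, 3.86 and 3.02 CPM with SeMSNs, against 4.63, 4.11 and 7.62 CPM in Old control. Old control replicate 3 was the highest library in each. Without it 0 members were lower and 2 higher at that p (500 and 488 of 15362 genes in that fit).

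The series title names calcium homeostasis, and the kidney's own calcium genes lay on both sides of 0. Of 21 genes that handle calcium, magnesium and phosphate, 11 were lower and 10 higher, with a median of −0.02, and 1 had an unadjusted p under 0.05, the calcium pump gene Atp2b4 (23.3, 18.9 and 16.1 CPM with SeMSNs, against 27.6, 25 and 23.8 CPM in Old control). The luminal calcium channel Trpv5 of the distal nephron had 23.5, 19.7 and 11.6 CPM with SeMSNs, against 19.3, 16.7 and 19.9 CPM in Old control, the calcium buffer Calb1 399.7, 387 and 201 CPM with SeMSNs, against 346, 267 and 322 CPM in Old control, and the calcium-sensing receptor gene Casr 29.7, 14.3 and 35.3 CPM with SeMSNs, against 37.2, 41.4 and 25.2 CPM in Old control. Groups overlapped in all 3. In the list, 1 was lower and 2 higher at that p without Old control replicate 3 (500 and 488 of 15362 genes in that fit). Klotho (Kl), the coreceptor for a phosphate-lowering hormone of bone, had 628, 565 and 512 CPM with SeMSNs, against 589.7, 419 and 556 CPM in Old control (0.12 ± 0.156, SE), and the parathyroid hormone receptor gene Pth1r 361, 399 and 319.8 CPM with SeMSNs, against 335, 258 and 315 CPM in Old control (0.25 ± 0.140).

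The vitamin D enzymes varied between single libraries: Cyp27b1, which activates vitamin D, was at 23.5, 64.7 and 11.8 CPM with SeMSNs, against 22.4, 22.6 and 38.7 CPM in Old control, and Cyp24a1, which breaks it down, at 91.4, 94.3 and 98.0 CPM with SeMSNs, against 107, 62.3 and 182 CPM in Old control. Genes of calcium signalling inside cells had a median of −0.01, with 2 of 23 lower at an unadjusted p under 0.05 (3.59% of all genes). The first was Rcan1, an inhibitor of calcineurin, at 64.0, 63.8 and 54.0 CPM with SeMSNs, against 86.3, 77.2 and 232 CPM in Old control, with Old control replicate 3 again the highest. The other was the calcineurin subunit gene Ppp3cb (−0.46 ± 0.190, SE). Without SeMSNs replicate 2 none reached that p.

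Of 14 genes of the renin-angiotensin-aldosterone system, 9 were higher and 5 lower (median 0.09). Renin (Ren1) had 38.8, 49.5 and 40.9 CPM with SeMSNs, against 22.6, 23.6 and 52.4 CPM in Old control, with Old control replicate 3 above all SeMSNs libraries and the other Old control libraries below them. Ace and the receptor Agtr1a had fold changes of 0.13 ± 0.22 and 0.11 ± 0.140 (SE). The peptidase gene Lnpep was the 1 member at an unadjusted p under 0.05, at 12.2, 7.53 and 13.3 CPM with SeMSNs, against 17.1, 15.2 and 15.6 CPM in Old control.

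Proximal transporters of drugs and metabolites had a median of 0.06. At an unadjusted p under 0.05, 1 was higher and 0 lower (2.52% and 3.59% of all genes). Slc47a1, which exports organic cations such as metformin into urine, was the 1 of 19 at an unadjusted p under 0.05, with 584, 671 and 589.9 CPM with SeMSNs, against 453, 401 and 534 CPM in Old control, higher without overlap (0.41 ± 0.136, SE). Its basolateral partner Slc22a2 had 244, 221 and 242 CPM with SeMSNs, against 185, 139 and 241 CPM in Old control, with overlap. Without Old control replicate 3 the list's median was 0.18, with 6 members higher and 0 lower at that p (488 and 500 of 15362 genes). Among 18 amino acid transporters, 3 were lower and 1 higher at that p (3.59% and 2.52% of all genes). The numbers were 1 and 1 without Old control replicate 3 (500 and 488 of 15362 genes). They were 0 and 2 without SeMSNs replicate 2 as well (578 and 558 of 15216 genes). The glutamine transporter Slc38a3, which feeds ammonia formation, had 87.3, 66.8 and 93.1 CPM with SeMSNs, against 101, 155 and 181 CPM in Old control, and the cationic transporter Slc7a1 had 8.53, 4.09 and 10.6 CPM with SeMSNs, against 12.1, 10.9 and 23.7 CPM in Old control. Slc36a1, of lysosomes and the brush border, had 109, 125 and 92.1 CPM with SeMSNs, against 82.3, 88.5 and 82.7 CPM in Old control. The late proximal transporter Slc7a13 had 422, 262 and 563 CPM with SeMSNs, against 262, 113 and 344 CPM in Old control. Of these 4 amino acid transporters, the groups overlapped for Slc7a13 alone.

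Fatty acid oxidation fuels the proximal tubule. The list's median was 0.01, and at an unadjusted p under 0.05 3 of 22 members were higher and 1 lower (2.52% and 3.59% of all genes). Pex11a, which divides peroxisomes, had 73.1, 77.6 and 72.3 CPM with SeMSNs, against 49.0, 50.2 and 63.6 CPM in Old control. Carnitine acetyltransferase Crat had 174, 170.4 and 161 CPM with SeMSNs, against 119, 132 and 154 CPM in Old control, and the peroxisomal thiolase Acaa1b had 261, 316 and 291 CPM with SeMSNs, against 234, 229.6 and 251 CPM in Old control. In all 3 every SeMSNs library was above every Old control library, as in 6.59% of all genes. Cyp4a14, a fatty acid hydroxylase, went the other way, at 688, 502 and 687 CPM with SeMSNs, against 891, 1948 and 686 CPM in Old control, with Old control replicate 2 far above the rest. Without Old control replicate 3, 7 were higher and 2 lower (488 and 500 of 15362 genes in that fit). Without SeMSNs replicate 2, 1 was higher and 0 lower (313 and 435 of 15344 genes). Of the genes of glucose supply, the gluconeogenic Pck1 had 3797, 3757 and 2298 CPM with SeMSNs, against 2863, 4849.9 and 6631 CPM in Old control and G6pc 662, 843 and 516 CPM with SeMSNs, against 393, 508 and 680.5 CPM in Old control, both with overlap.

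Autophagy and lysosome genes, which clear worn proteins and organelles, include Eva1a. The list's median was −0.07 with 14 of 23 lower, Eva1a the only one at an unadjusted p under 0.05. The lysosomal protease gene Ctsd had 627, 578 and 566 CPM with SeMSNs, against 693, 679 and 686 CPM in Old control, and the lysosomal membrane gene Lamp2 had 694, 703 and 725 CPM with SeMSNs, against 812, 822 and 804 CPM in Old control. Both lay lower without overlap, with log2 fold changes of −0.22 ± 0.101 and −0.20 ± 0.0973 (SE), and neither passed. Of 17 insulin, Foxo and sirtuin genes, 9 were higher and 8 lower, with a median of 0.01. At an unadjusted p under 0.05, 1 was lower and 0 higher (3.59% and 2.52% of all genes). Sirt2, a cytosolic deacetylase, had the lowest p of this list (−0.50 ± 0.104, SE). It was at 44.0, 44.5 and 44.3 CPM with SeMSNs, against 67.4, 60.1 and 60.5 CPM in Old control. Sirt1 and Foxo1 had log2 fold changes of −0.27 ± 0.128 and −0.35 ± 0.171. Clock genes, which report the time of day, had a median of −0.02 and none of 19 at that p. The clock output gene Dbp had 83.8, 90.6 and 74.9 CPM with SeMSNs, against 88.0, 57.1 and 54.3 CPM in Old control.

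No selenoprotein passed the test. Of 21 tested, 12 were higher and 9 lower, with a median of 0.05. Without SeMSNs replicate 2 the median was −0.04, with 12 lower. Gpx3, the nuclear gene with the highest FPKM in these kidneys, averaged 11252 ± 2719 FPKM with SeMSNs and 10380.1 ± 927 FPKM in Old control (SD, n = 3 each), the selenium carrier Sepp1 306 ± 25.1 FPKM with SeMSNs and 282 ± 44.9 FPKM in Old control and the lipid peroxidase Gpx4 64.5 ± 5.44 FPKM with SeMSNs and 60.8 ± 7.62 FPKM in Old control. Their log2 fold changes were 0.09 ± 0.212, 0.07 ± 0.167 and 0.05 ± 0.132 (SE). Gpx1, the cytosolic peroxidase, was the 1 member at an unadjusted p under 0.05, with 475, 2474 and 373 CPM with SeMSNs, against 373, 150.0 and 459 CPM in Old control. SeMSNs replicate 2 alone was high, and the log2 fold change of 1.76 ± 0.745 (SE) was 0.37 without it. The phospholipid enzyme gene Ept1 had 2.94, 1.36 and 9.72 CPM with SeMSNs, against 11.0, 16.3 and 3.72 CPM in Old control, overlapping widely, and apart from Gpx1, Ept1 and the scarce Dio2 the fold changes lay between −0.34 and 0.32. Deiodinase Dio1, which activates thyroid hormone, had 20.9, 21.3 and 24.2 CPM with SeMSNs, against 20.5, 22.4 and 22.8 CPM in Old control, and thioredoxin reductase Txnrd1 160.1, 119 and 161 CPM with SeMSNs, against 132, 137 and 253 CPM in Old control. Genes of selenium uptake and selenocysteine synthesis had a median of −0.01 and none of 13 at that p.

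Sik1 had 72.3, 72.7 and 75.6 CPM with SeMSNs, against 59.1, 57.2 and 125 CPM in Old control (−0.13 ± 0.290, SE), with Old control replicate 3 the highest of the 6 and the other Old control libraries below all SeMSNs libraries. The adjusted p of Sik1 was 0.927 by edgeR with all libraries and at least 0.582 over its alternatives. Its log2 fold change without Old control replicate 3 was 0.34 ± 0.112 (SE), with an adjusted p of 0.724 by edgeR. Sik2 and Sik3 had fold changes of −0.38 ± 0.219 and −0.20 ± 0.156, Crtc1, Crtc2 and Crtc3 0.10 ± 0.142, −0.14 ± 0.150 and 0.25 ± 0.140, and Creb1 −0.30 ± 0.146. At an unadjusted p under 0.05, 1 of 15 genes of this list was lower and 0 higher (3.59% and 2.52% of all genes). With that library left out 1 was lower and 1 higher (500 and 488 of 15362 genes).

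**Figure D5:**
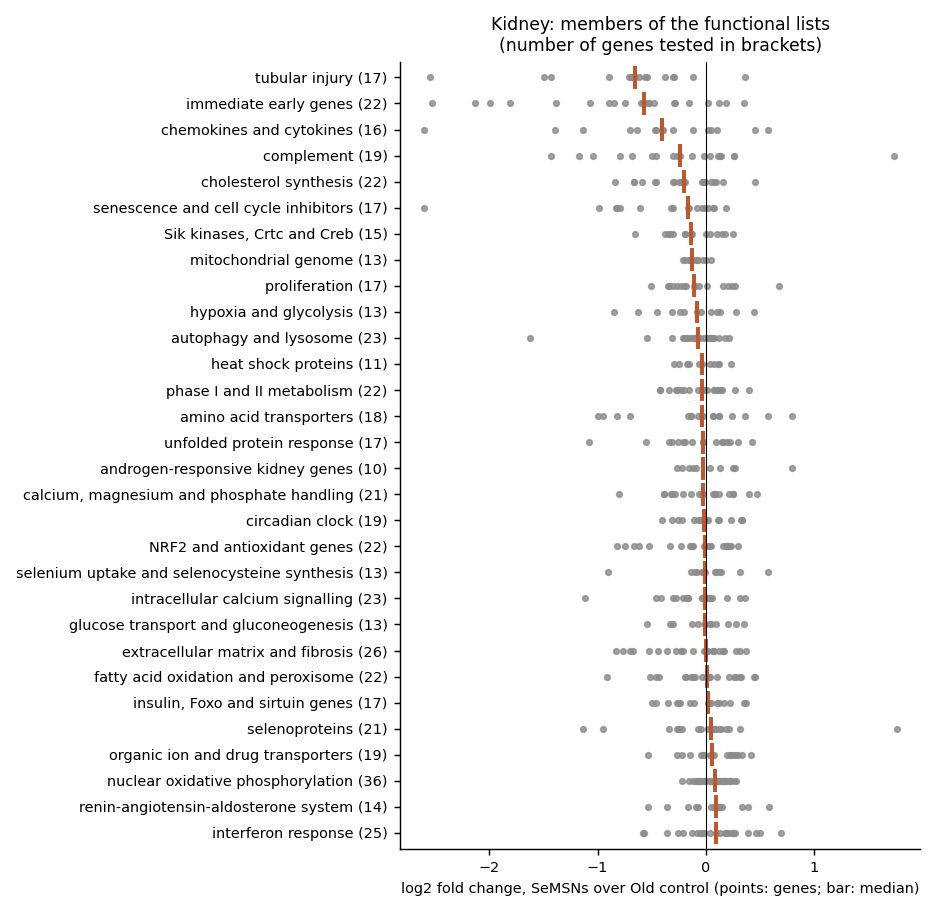
Log2 fold change of SeMSNs over Old control for the members of each functional list (points) with the list's median (bar), lists ordered by median. Medians lie between −0.66 for tubular injury and 0.10 for interferon response, and 5 lists have a median below −0.20.

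The 10 genes at the highest FPKM were Gpx3 and 9 genes of the mitochondrial genome. Mitochondrial fold changes lay between −0.21 and 0.04 over 13 genes, and none had an unadjusted p under 0.05. Nuclear genes of oxidative phosphorylation had a median of 0.08 over 36 genes, with 24 higher and 12 lower. Without SeMSNs replicate 2 their median was −0.04, with 23 lower. Interferon response genes had a median of 0.10, with 2 lower and 1 higher at an unadjusted p under 0.05 (3.59% and 2.52% of all genes). The lower ones, Ifi44 and Rsad2, had fold changes of −0.57 ± 0.183 and −0.58 ± 0.20 (SE). Without Old control replicate 3, 2 were lower and 3 higher (500 and 488 of 15362 genes in that fit). Unfolded protein response genes had a median of −0.03, with 10 of 17 lower and 7 higher. At an unadjusted p under 0.05, 2 were lower and 1 higher (3.59% and 2.52% of all genes). Without Old control replicate 3, 0 were lower and 2 higher at that p (500 and 488 of 15362 genes). The chaperone gene Creld2, of this list, was at 28.8, 27.8 and 24.9 CPM with SeMSNs, against 23.0, 18 and 19.6 CPM in Old control.

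Whether the kidney response differed from that of the other tissues was tested as a difference of effects in a fit of all 18 libraries, over 18001 genes. Against brain 0 genes passed by edgeR (percent called 0 higher and 0 lower). An unadjusted p under 0.05 was reached by 674 genes with a higher effect in kidney (3.74%) and 704 with a lower one (3.91%), and the calls were 66 and 56 by DESeq2 and 45 and 12 by limma on log2(FPKM + 1). For Eva1a the kidney effect minus the brain effect was −1.95 ± 0.299 (SE), with an adjusted p of 0.0724 by edgeR and a range of 2.81e-07 to 0.298 over its alternatives. In brain Eva1a had 11.4, 12.7 and 9.19 CPM with SeMSNs and 9.72, 5.71 and 9.67 CPM in Old control. Minus the gastrocnemius effect it was −1.51 ± 0.343 (adjusted p 0.395; 0.0336 to 0.726 over its alternatives), and in gastrocnemius Eva1a was low, at 0.916, 0.970 and 1.1 CPM with SeMSNs and 0.622, 1.36 and 1.30 CPM in Old control.

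Against gastrocnemius 2 genes passed, both with a higher effect in kidney (percent called 0.0111), and 0 with a lower one. At an unadjusted p under 0.05 they numbered 675 (3.75%) and 508 (2.82%), by DESeq2 26 and 19, and by limma 2 and 2. Irs2, an adaptor of the insulin receptor, had 16.4, 9.56 and 20.5 CPM with SeMSNs and 10.5, 18.6 and 15 CPM in Old control kidneys, where its log2 fold change was 0.03. In gastrocnemius it had 5.39, 6.38 and 9.69 CPM with SeMSNs and 33.4, 68.9 and 53.6 CPM in Old control. The values of Myh14, a nonmuscle myosin heavy chain, belong to the entry ENSMUSG00000108439 alone. Any other entry under this name is not reported here. It had 29.6, 8.07 and 18.7 CPM with SeMSNs and 14.6, 16.5 and 27.3 CPM in Old control kidneys, where its log2 fold change was −0.12. In gastrocnemius it had 0.108, 0.409 and 0.219 CPM with SeMSNs and 24.7, 29.5 and 15.1 CPM in Old control. The differences of effects were 2.85 ± 0.416 (SE; adjusted p 0.0358) and 6.40 ± 0.812 (adjusted p 0.0129). In both genes the groups overlapped in kidney and were apart in gastrocnemius. Neither difference passed without kidney Old control replicate 1.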

How the data were processed

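RNA was measured by polyA sequencing in 18 libraries, of which the 6 kidney libraries are used here, with brain and gastrocnemius only in the tissue differences. The authors deposited 1 table of 34745 genes with raw counts and FPKM per library. The genome was GRCm38, per the submitters' processing notes. Neither the aligner nor the counter is named in the sources used here. From the deposited counts, genes were kept with filterByExpr (minimum count 10, total 15), scaled with TMM and tested with edgeR 4.0.16 (quasi-likelihood, R 4.3.3), Benjamini-Hochberg adjusted over all genes kept. CPM uses the TMM-scaled library sizes. DESeq2 1.42.0, limma 3.58.1 on log2(FPKM + 1) or log2(FPKM + 0.1) of the authors' FPKM, other scalings and filters, and fits leaving out libraries were alternatives. Scripts were tested on simulated data. Median fold changes and counts of members describe lists of genes, 53 in number, without a test of the list.

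The comparison, the members and the lists were chosen with earlier results of these data known. Genes are named by rule: those called by edgeR or DESeq2, the 12 smallest p in each direction among genes with a mean of at least 1 CPM, a log2 fold change past 0.58 in size and groups without overlap, up to 4 members of each list by p, a set of Sik, Crtc and selenoprotein genes, genes past the threshold in a tissue difference, and the 10 genes at the highest FPKM. Predicted genes are left out of the second and the tissue part. Other list members are named for their role, after their values were seen. Genes at 2 levels were chosen after their values were seen. Total counts of 17357799 to 22146406 set the precision of low genes. Values of some list members are not reported here.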

Additional observations from a re-analysis of the deposited data

Results flagged for a closer look

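For 2 genes the effect of SeMSNs in kidney differed from that in gastrocnemius by a test of the difference itself (edgeR's quasi-likelihood test in the fit of 18 libraries, Benjamini-Hochberg adjusted). Myh14 (entry ENSMUSG00000108439 alone) had a difference of effects of 6.40 ± 0.812 (SE) on the log2 scale with an adjusted p of 0.0129. Irs2 had one of 2.85 ± 0.416 with an adjusted p of 0.0358. In kidney their log2 fold changes were −0.12 and 0.03, and in gastrocnemius −6.52 and −2.82. The 3 SeMSNs libraries lay below the 3 Old control libraries in gastrocnemius for both genes. Neither gene passed when kidney Old control replicate 1 was left out.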

How the results depend on the processing

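In kidney, 0 genes were higher and 1 lower by edgeR, and 380 and 540 at an unadjusted p under 0.05. With no filter on low counts 1 was higher and 4 lower, with a robust fit 1 and 2, and by DESeq2 8 and 18. Limma called 0 lower with either pseudocount. Leaving out 1 library in turn gave 0 to 1 higher and 0 to 3 lower. Without Old control replicate 3 and SeMSNs replicate 2 together 3 were higher and 4 lower. RLE and upper-quartile scaling, the stricter filter, the fit of all 18 libraries and leaving out the mitochondrial genome kept both counts within 1.5 times.

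For kidney minus brain, DESeq2 called 66 higher and 56 lower and limma 45 and 12, with 0 to 2 higher when 1 library was left out. For kidney minus gastrocnemius, DESeq2 called 26 higher and 19 lower and limma 2 lower, with 0 to 6 higher when 1 library was left out: 0 without Old control replicate 1, 6 without Old control replicate 3, and 1 each without SeMSNs replicate 1 or 3. The causes were not tested.

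The replicate numbers were not shown to pair the samples: deviations of same-numbered libraries correlated at 0.0218, 0.0722 and 0.0427, and other pairs at −0.127 to 0.0920. With the replicate number as a block 0 genes were called lower in kidney.

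Over 46 named genes and their alternatives, 733 of 827 values kept their call. Where neither value passed, these also lay within the SE of the reported one, and 55 lay further off. The rest were 31 that passed where the reported value had not and 8 that no longer passed. Within these 827 values, 15 had the other sign. Of 530 list medians, 87 changed sign, 5 of them in lists with a median of at least 0.2 in size. At these depths a difference in a gene near 1 CPM rests on about 20 counts a library. Counts of list members with libraries left out were added after the data were seen.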
